A study of Mus musculus with 18 samples.

Results

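Cytochrome P450 enzymes of families 1 to 3 are the haem proteins of the endoplasmic reticulum that oxidise drugs, pollutants, steroids and fatty acids. The members described here are the probe sets whose annotation gives exactly 1 gene symbol and whose symbol is that of a numbered Cyp1, Cyp2 or Cyp3 gene. They come to 60 probe sets for 57 genes, out of 23521 probe sets with 1 symbol (22180 genes) and 41345 in the whole table. Cyp2c29, Cyp2c55 and Cyp2f2 have a pair of probe sets each, and all probe sets are reported. Cyp2d13 is listed as a transcribed pseudogene, and the other genes are protein coding.

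The animals were C57BL\6 mice raised germ-free, that is without microbes, and given gut microbes at an age of 5 to 6 weeks. OMT recipients received the microbes of donors 24 months old (given elsewhere in the labels as 2 years). YMT recipients received those of young donors, whose age the labels give both as 4 weeks and as 5 to 6 weeks. Both groups were sampled 8 weeks later, at a stated age of 12 or 13 weeks, and liver and small intestine were measured on 5 OMT and 4 YMT arrays each, 18 in all. No group of untouched germ-free mice is used here, so each value sets one colonised group against the other. How many donors or cages stood behind a group was not used here, so donor or cage cannot be told apart from donor age.

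These enzymes are made mainly by hepatocytes and, for a smaller set, by enterocytes, and their genes are switched by ligand-activated transcription factors. The aryl hydrocarbon receptor (AhR) drives family 1, the constitutive androstane receptor (CAR, gene Nr1i3) drives Cyp2b and several Cyp2c genes, and the pregnane X receptor (PXR, gene Nr1i2) drives Cyp3a. Some of the ligands, such as indoles and secondary bile acids, are products of gut bacteria. Several Cyp2 and Cyp3a genes of mouse liver also differ by sex under the control of growth hormone.

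Values are log2 array levels, on which a step of 1 is a 2-fold difference. Differences are those of OMT less YMT, ± the standard error (SE), tested with limma and adjusted by Benjamini-Hochberg over all 23521 probe sets of a tissue, with a threshold of 0.05. A probe set is called dim where both group means lay at or below the highest array median of its tissue, where a value has little meaning as a level and differences are narrowed. The array medians were 4.12 to 4.22 in liver and 4.39 to 4.51 in intestine. The tissue labels held. The mean level of 10 hepatocyte markers was 12.40 to 12.53 over livers and 5.36 to 5.98 over intestines, while that of 10 enterocyte markers was 5.61 to 5.96 over livers, against 11.55 to 12.36 over intestines. Levels of different probe sets are not set against each other, because probes differ in brightness. Probe sets of close paralogues can also detect each other's transcripts. These are bulk tissues, in which fewer cells of a type and less RNA per cell cannot be told apart.

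In the liver, OMT recipients had higher Cyp2a4, Cyp2a5, Cyp2b9, Cyp2c38, Cyp2c39 and Cyp3a13 than YMT recipients, and lower Cyp1a2, Cyp2c55, Cyp2u1, Cyp2j6, Cyp3a11 and Cyp3a44. Of the 60 probe sets, 10 were higher (16.7%) and 15 lower (25%), where over all probe sets 4.89% were higher and 4.28% lower. Counting either direction, these were 25 of 60 (41.7%, against 9.17% of all probe sets). Of these, 4 rises and 10 falls were at least 2-fold. The other 35 did not pass, and 17 of the 60 were dim, none of which passed. The median difference over the members was -0.04, and -0.02 over all probe sets. At an unadjusted p under 0.05 there were 32. The share of all probe sets was not counted at that level or at the 2-fold limit, so these counts cannot be compared with it. All OMT livers lay above all YMT livers for 10 members (16.7%, against 5.84% of all probe sets) and below them for 17 (28.3%, against 5.4%).

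**Figure D1:**
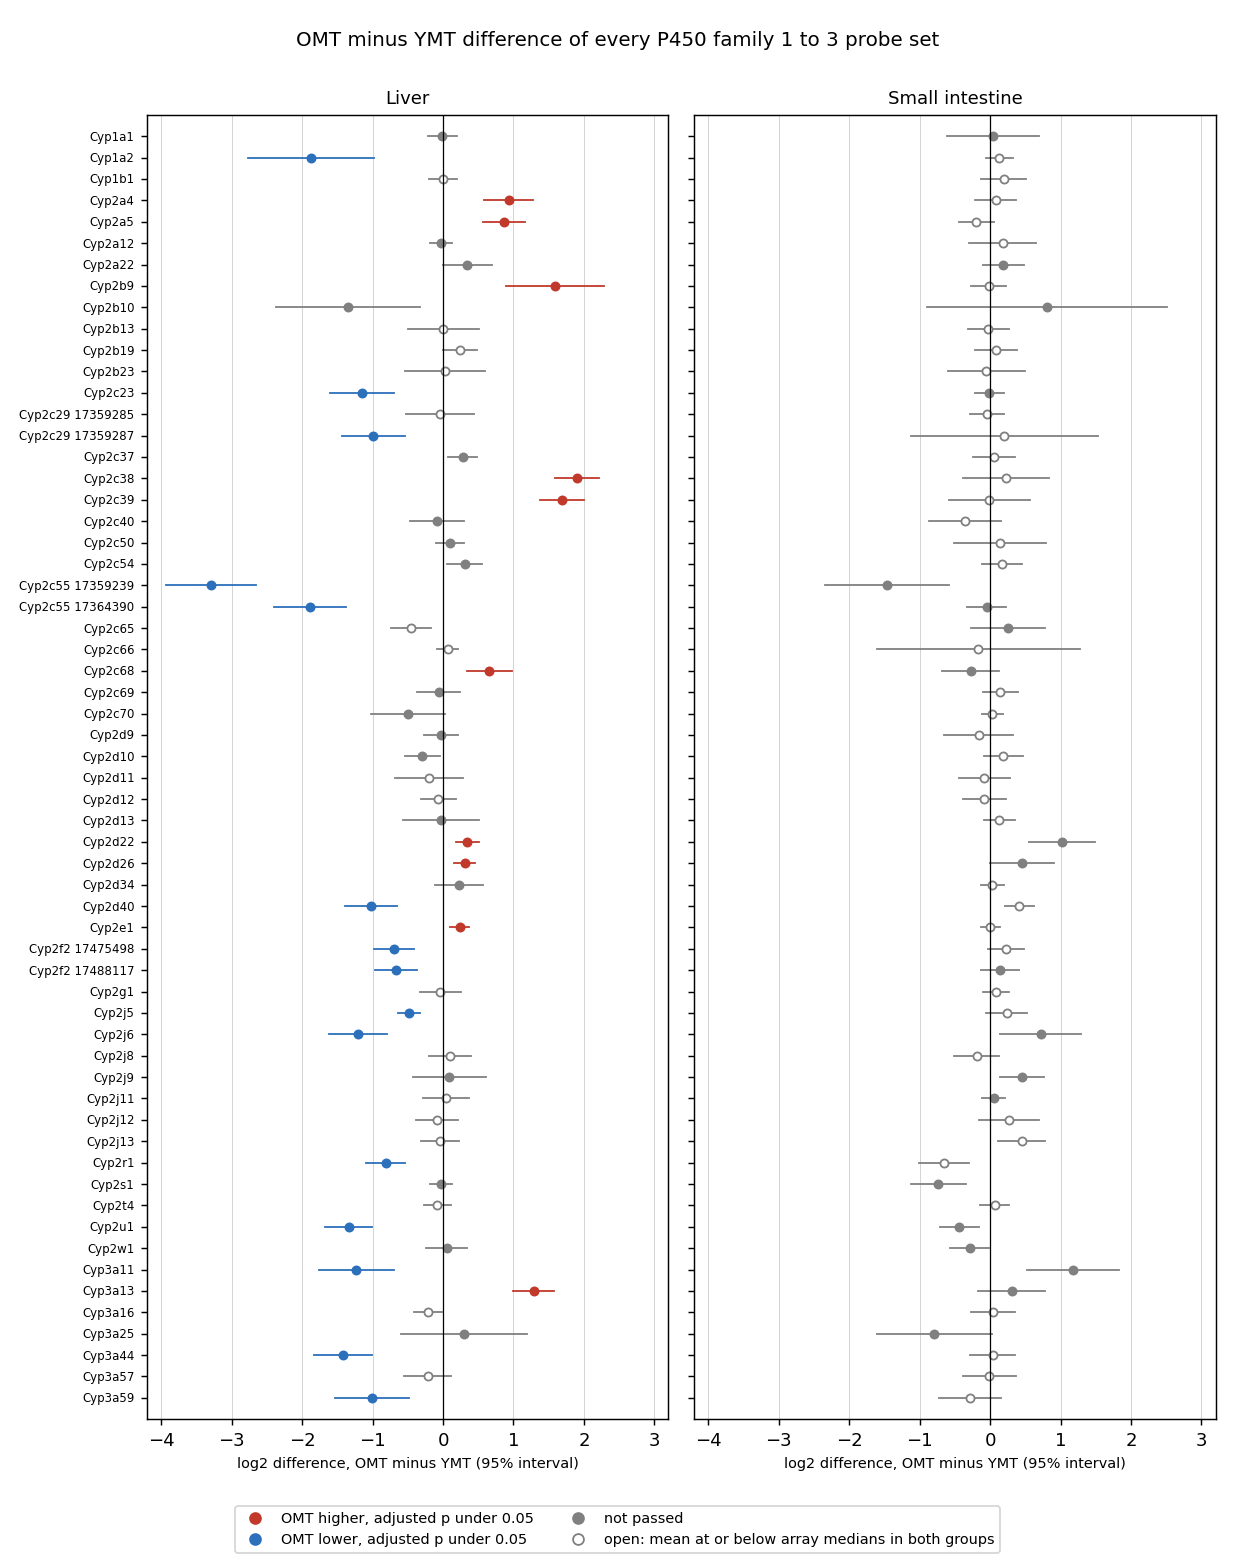
Log2 difference OMT minus YMT (x axis, with its 95% interval) of each of the 60 probe sets, by subfamily, in liver (left) and small intestine (right). Filled red and blue points passed the test as higher (10) and lower (15) in OMT livers, grey points did not pass, and open points are dim. The right panel holds 40 open points and no coloured one.

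Among the Cyp1 genes, Cyp1a2, the hepatic enzyme that oxidises caffeine and aromatic amines, was lower in OMT livers. Its log2 levels were 10.67, 10.87, 8.87, 8.96 and 9.23 in OMT livers, against 11.57, 11.56, 11.68 and 11.58 in YMT livers. The YMT livers lay within a narrow band and every OMT liver lay below it, with OMT replicates 3 to 5 lowest. The difference was -1.88 ± 0.40, or 3.67-fold lower (adjusted p = 0.0153). It was -2.58 without OMT replicates 1 and 2 (adjusted p = 1.3e-05). These were the OMT livers nearest to YMT, so leaving them out must widen the difference, and that p-value is no support for it. With the replicate number as a block the difference missed the threshold (-1.76, adjusted p = 0.0594). Cyp1a1, the AhR-induced enzyme that oxidises polycyclic aromatics, had 4.31, 4.42, 4.39, 3.99 and 4.31 in OMT livers, against 4.34, 4.31, 4.31 and 4.21 in YMT livers. These ranges overlap and lie close to the array medians, and the difference was -0.01 ± 0.09 (95% interval -0.21 to 0.20). Cyp1b1, an AhR target found mostly outside the liver, was dim at 2.51 to 2.65 in OMT livers and 2.39 to 2.84 in YMT livers (0.00 ± 0.09).

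Cyp1a1 and Cyp1a2 are neighbours on chromosome 9 and are read in opposite directions, so their upstream sequences are shown to set both beside the motif of their common regulator. The 250 bases before each start site are from RefSeq (assembly GRCm38.p6), printed 5′ to 3′ on the gene's own strand, with capitals for GCGTG, the core of the AhR response element, or its reverse complement, and for the nuclear receptor half-sites AGGTCA and AGTTCA, described further on. Cyp1a2 lies on the minus strand at chr9:57683656-57683905 and Cyp1a1 on the plus strand at chr9:57697363-57697612.
Cyp1a2: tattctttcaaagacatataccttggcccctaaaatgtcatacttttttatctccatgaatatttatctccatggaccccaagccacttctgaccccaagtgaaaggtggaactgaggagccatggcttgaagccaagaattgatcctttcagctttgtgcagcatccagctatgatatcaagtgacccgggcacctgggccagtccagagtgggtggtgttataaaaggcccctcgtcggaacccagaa
Cyp1a1: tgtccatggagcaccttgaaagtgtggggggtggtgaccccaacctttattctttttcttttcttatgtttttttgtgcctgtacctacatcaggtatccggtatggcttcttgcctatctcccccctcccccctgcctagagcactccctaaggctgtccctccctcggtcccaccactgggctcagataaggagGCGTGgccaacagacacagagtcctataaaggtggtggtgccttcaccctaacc
The Cyp1a1 run holds GCGTG 1 time and the Cyp1a2 run none of the 3 motifs. In a gapped alignment the runs were identical at 126 of 250 positions (50.4%). Over windows from 250 bases before to 50 bases after the start, GCGTG was present in 32.4% of 32851 RefSeq promoters and in 10 of the 52 windows found for 49 of the 57 P450 genes (19.2%), 2 of them the windows of Cyp1a1 and Cyp1b1. A match is a run of letters and no measure of binding. Sequence beyond these windows was not searched, so a motif absent here may still lie further from the gene's start.

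Of the 4 Cyp2a genes, both Cyp2a4 and Cyp2a5 were higher in OMT livers. Cyp2a4, a steroid hydroxylase known as higher in female liver, had 9.83, 9.67, 9.77, 9.93 and 9.77 in OMT livers, against 8.30, 8.94, 8.96 and 9.24 in YMT livers (0.93 ± 0.16, adjusted p = 0.00422). Cyp2a5, the coumarin hydroxylase, had 6.58, 6.35, 6.21, 6.23 and 6.26 in OMT livers, against 5.02, 5.54, 5.64 and 5.63 in YMT livers (0.87 ± 0.13, adjusted p = 0.00262). Neither gene's groups overlap. The upstream 250 bases of these genes were 98% identical, and their transcripts may share probes. Cyp2a12 (-0.03 ± 0.07) and Cyp2a22 (0.35 ± 0.16) did not pass.

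Among 5 Cyp2b genes, only Cyp2b9 passed. Cyp2b9, a steroid hydroxylase known as higher in female liver, had 8.47, 9.94, 8.77, 8.67 and 9.27 in OMT livers, against 6.74, 7.36, 8.05 and 7.58 in YMT livers. The groups did not overlap and the difference was 1.59 ± 0.32, a 3.01-fold rise (adjusted p = 0.0102). Cyp2b10, the classical CAR target induced by phenobarbital, had 6.01, 6.95, 4.49, 5.00 and 4.47 in OMT livers, against 6.51, 6.90, 7.11 and 6.42 in YMT livers. OMT replicate 2 lay among the YMT livers, while OMT replicates 3 to 5 lay below all YMT livers. The difference of -1.35 ± 0.46 did not pass (adjusted p = 0.103). It was -2.08 without OMT replicates 1 and 2 (adjusted p = 0.000828), and also passed without OMT replicate 2 alone. Those arrays held the highest OMT values, so leaving them out must widen the fall, and these passes are no support for it. Cyp2b13, Cyp2b19 and Cyp2b23 were dim.

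The 16 Cyp2c probe sets, for 14 genes, held the largest differences in both directions. Cyp2c55, an arachidonic acid hydroxylase known as CAR and PXR inducible, had 5.02, 5.54, 4.22, 3.90 and 4.21 in OMT livers, against 7.75, 7.94, 8.05 and 7.76 in YMT livers by probe set 17359239. Its other probe set, 17364390, gave 6.63, 6.59, 6.05, 5.72 and 6.26 in OMT livers, against 8.66, 8.07, 7.58 and 8.24 in YMT livers. Both separate the groups, at -3.30 ± 0.29 (9.83-fold lower, adjusted p = 9.38e-05) and -1.89 ± 0.23 (3.70-fold lower, adjusted p = 0.000651). OMT replicates 3 to 5 of the first probe set lay at or below the highest array median, so the size of that fall is less certain than its direction.

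Cyp2c38, an arachidonic acid epoxygenase, rose 3.74-fold. Its levels were 9.25, 9.12, 9.20, 8.80 and 9.59 in OMT livers, against 7.36, 7.43, 7.06 and 7.31 in YMT livers (1.90 ± 0.14, adjusted p = 2.92e-05). Cyp2c39, which hydroxylates retinoic acid, had 6.05, 5.82, 6.30, 6.40 and 6.36 in OMT livers, against 4.67, 4.73, 4.33 and 4.28 in YMT livers (1.68 ± 0.14, adjusted p = 6.71e-05). In both genes the lowest OMT liver lay more than 1 log2 unit above the highest YMT liver. Cyp2c68 was higher by 0.66 ± 0.15 (adjusted p = 0.0178).

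Cyp2c23, another arachidonic acid epoxygenase, was at 9.71 ± 0.46 in OMT livers and 10.87 ± 0.16 in YMT livers (SD, n = 5 and 4), a fall of 1.15 ± 0.21 (adjusted p = 0.00594). Cyp2c29, of the same activity, was by probe set 17359287 at 11.60 ± 0.46 in OMT livers and 12.59 ± 0.10 in YMT livers (-0.99 ± 0.20, adjusted p = 0.0117), while its probe set 17359285 was dim (-0.04 ± 0.22). The other 8 Cyp2c genes did not pass. Among these, Cyp2c70, which makes the muricholic acids of mouse bile, had a difference of -0.50 ± 0.24 (adjusted p = 0.249), Cyp2c37 of 0.28 ± 0.09 (adjusted p = 0.0971) and Cyp2c54 of 0.31 ± 0.11 (adjusted p = 0.132). Cyp2c50 (0.10 ± 0.09), Cyp2c40 (-0.09 ± 0.17) and Cyp2c69 (-0.06 ± 0.14) lay near 0. Cyp2c65 and Cyp2c66 were dim, the first with a difference of -0.46 just short of the threshold (adjusted p = 0.0507), the second with 0.06 (adjusted p = 0.648).

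The Cyp2d changes were small but for Cyp2d40. Cyp2d40 had 6.04, 6.20, 5.96, 5.80 and 5.87 in OMT livers, against 7.54, 6.73, 6.64 and 7.09 in YMT livers (-1.03 ± 0.17, adjusted p = 0.00374), with no overlap. Cyp2d22 (0.34 ± 0.07, adjusted p = 0.0146) and Cyp2d26 (0.31 ± 0.07, adjusted p = 0.019) were slightly higher. Cyp2d9, a testosterone hydroxylase known as higher in male liver, had a difference of -0.03 ± 0.11 (95% interval -0.27 to 0.21). Cyp2d10 (-0.29 ± 0.11), Cyp2d34 (0.23 ± 0.15) and the pseudogene Cyp2d13 (-0.03 ± 0.24) did not pass, and Cyp2d11 and Cyp2d12 were dim.

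Cyp2e1, the enzyme that oxidises ethanol and paracetamol, had 12.92, 12.89, 12.92, 12.94 and 12.98 in OMT livers, against 12.59, 12.74, 12.75 and 12.70 in YMT livers. Every OMT liver was higher, by a mean of 0.23 ± 0.06 (adjusted p = 0.042). This call was lost on leaving out any single liver array.

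Cyp2f2, known in mouse for activating naphthalene in lung, was lower in OMT livers by both probe sets. Probe set 17475498 had 11.52, 11.45, 11.52, 11.07 and 11.15 in OMT livers, against 12.12, 11.85, 12.31 and 11.89 in YMT livers (-0.70 ± 0.13, adjusted p = 0.00711). Probe set 17488117 had 5.75, 5.56, 5.78, 5.41 and 5.37 in OMT livers, against 6.36, 6.00, 6.56 and 6.04 in YMT livers (-0.67 ± 0.13, adjusted p = 0.0113). In size and direction these probe sets differed by less than their standard errors.

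Of the 7 Cyp2j genes, whose best known products are epoxides of arachidonic acid, Cyp2j5 and Cyp2j6 were lower. Cyp2j5 had 11.18, 11.13, 11.33, 11.17 and 11.22 in OMT livers, against 11.76, 11.73, 11.68 and 11.58 in YMT livers (-0.48 ± 0.07, adjusted p = 0.00178). Cyp2j6 averaged 6.69 ± 0.41 in OMT livers and 7.90 ± 0.14 in YMT livers (-1.21 ± 0.19, adjusted p = 0.00257). Neither gene's groups overlap. Cyp2j9 (0.09 ± 0.23) did not pass, and Cyp2j8, Cyp2j11, Cyp2j12 and Cyp2j13 were dim.

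Cyp2r1 and Cyp2u1 were lower in OMT livers. Cyp2r1, the liver enzyme that starts vitamin D activation, had 6.79, 6.72, 6.67, 6.75 and 6.73 in OMT livers, against 7.92, 7.57, 7.52 and 7.17 in YMT livers (-0.81 ± 0.12, adjusted p = 0.00242). The OMT livers agreed to within 0.04 (SD), and all 4 YMT livers lay above them. Cyp2u1, a hydroxylase of long-chain fatty acids, had 7.14, 7.53, 7.47, 7.13 and 7.02 in OMT livers, against 8.90, 8.41, 8.78 and 8.30 in YMT livers (-1.34 ± 0.15, adjusted p = 0.000402), again without overlap. Cyp2s1 (4.44 to 4.73 in OMT livers and 4.63 to 4.69 in YMT livers) and Cyp2w1 (4.29 to 4.92 and 4.32 to 4.70) lay just above the array medians and did not pass. Cyp2g1 (3.82 to 4.27 and 3.72 to 4.31), an olfactory enzyme, and Cyp2t4 (3.29 to 3.66 and 3.46 to 3.63) were dim.

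The 7 Cyp3a genes divided, with Cyp3a13 higher and Cyp3a11, Cyp3a44 and Cyp3a59 lower in OMT livers. Cyp3a11, the main drug-oxidising Cyp3a of mouse liver and a PXR target, had 9.37, 9.45, 8.09, 8.64 and 8.78 in OMT livers, against 9.96, 10.13, 10.20 and 10.09 in YMT livers. All OMT livers were below the YMT livers, and replicates 3 to 5 furthest, for a difference of -1.23 ± 0.24, or 2.34-fold lower (adjusted p = 0.00934). It was -1.59 without OMT replicates 1 and 2 (adjusted p = 0.000979), which again were the OMT livers nearest to YMT, so this widening is no support. With the replicate number as a block the difference missed the threshold (-1.21, adjusted p = 0.052). Cyp3a44, known as higher in female liver, had 4.37, 4.60, 3.56, 4.37 and 4.36 in OMT livers, against 5.42, 5.70, 5.77 and 5.79 in YMT livers (-1.42 ± 0.18, adjusted p = 0.000925). Its OMT values lie around the array medians, so the fall is measured down to a faint signal. Cyp3a59 was at 6.38 ± 0.53 in OMT livers and 7.39 ± 0.19 in YMT livers (-1.01 ± 0.24, adjusted p = 0.0227).

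Cyp3a13, expressed in both liver and gut, went the other way. Its levels were 9.44, 9.59, 9.83, 10.02 and 9.92 in OMT livers, against 8.36, 8.43, 8.75 and 8.36 in YMT livers, a 2.44-fold rise (1.28 ± 0.13, adjusted p = 0.000225). Every OMT liver was above every YMT liver. Cyp3a25 was widely spread within both groups (7.98 to 9.72 in OMT livers and 7.38 to 8.84 in YMT livers) and did not pass (0.30 ± 0.40), and Cyp3a16 and Cyp3a57 were dim. A pair of probe sets outside the rule, each annotated to Cyp3a41a, Cyp3a41b, Cyp3a11 and Cyp3a44 at once, were lower in OMT livers by 1.03 ± 0.22 and 1.04 ± 0.22 (both adjusted p = 0.034 over all 41345 probe sets). Transcripts this alike can be read by each other's probes, so the Cyp3a11 and Cyp3a44 values may not be independent.

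**Figure D2:**
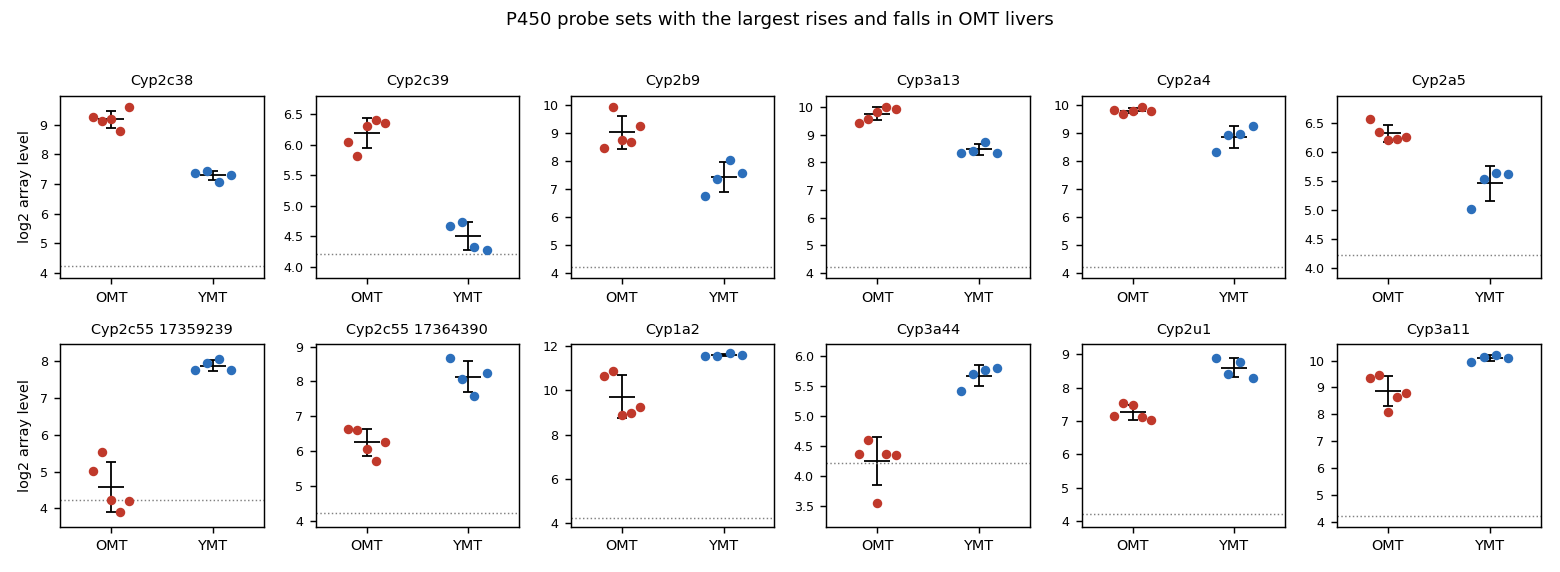
Log2 level (y axis) on each OMT (red, n = 5) and YMT (blue, n = 4) liver array of the 6 probe sets with the largest rises (top) and the 6 with the largest falls (bottom) among the 25 that passed the test. Bars are the mean and SD and the dotted line is the highest array median, 4.22. No panel has overlapping groups (Cyp2b10, which did not pass and is not drawn, does), and the OMT points of Cyp2c55 17359239 and Cyp3a44 come down to that line.

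RefSeq (GRCm38.p6) places the other 6 Cyp3a genes in 1 cluster on chromosome 5 and Cyp3a13 apart from it. Upstream runs are shown for the 3 members that fell and the 1 that rose, to set their differences beside sequence that the array does not measure. They are the 250 bases before the start of Cyp3a11 (chr5:145879855-145880104, minus strand), Cyp3a44 (chr5:145805875-145806124, minus), Cyp3a59 (chr5:146079008-146079257, plus) and Cyp3a13 (chr5:137921620-137921869, minus), printed 5′ to 3′. Capitals mark AGGTCA, the half-site that PXR, CAR and many other nuclear receptors bind, its variant AGTTCA, and the reverse complements of both.
Cyp3a11: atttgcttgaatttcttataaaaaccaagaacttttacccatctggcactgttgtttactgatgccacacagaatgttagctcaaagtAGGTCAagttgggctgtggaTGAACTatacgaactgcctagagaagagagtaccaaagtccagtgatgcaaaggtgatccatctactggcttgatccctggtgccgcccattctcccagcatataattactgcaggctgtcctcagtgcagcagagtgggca
Cyp3a44: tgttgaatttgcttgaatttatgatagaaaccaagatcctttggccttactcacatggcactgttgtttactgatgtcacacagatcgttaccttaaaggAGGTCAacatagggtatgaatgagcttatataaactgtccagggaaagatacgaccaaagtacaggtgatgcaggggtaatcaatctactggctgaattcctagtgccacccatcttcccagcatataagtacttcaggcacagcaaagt
Cyp3a59: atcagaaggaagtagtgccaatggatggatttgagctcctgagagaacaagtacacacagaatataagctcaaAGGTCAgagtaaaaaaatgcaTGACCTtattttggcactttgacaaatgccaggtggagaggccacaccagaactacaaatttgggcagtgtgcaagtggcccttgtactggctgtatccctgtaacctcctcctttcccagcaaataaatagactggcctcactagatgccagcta
Cyp3a13: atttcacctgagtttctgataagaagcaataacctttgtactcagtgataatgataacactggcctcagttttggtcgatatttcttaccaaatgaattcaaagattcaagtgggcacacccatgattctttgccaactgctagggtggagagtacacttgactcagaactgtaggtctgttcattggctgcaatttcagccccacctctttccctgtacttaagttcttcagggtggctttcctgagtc
Cyp3a11 holds AGGTCA 1 time and AGTTCA 1 time on the other strand, Cyp3a44 holds AGGTCA 1 time, Cyp3a59 holds it 2 times, 1 on each strand, and Cyp3a13 holds neither. AGGTCA was also found 2 times each in the windows of Cyp3a25, which did not pass, and Cyp3a57, which was dim, and not in that of Cyp3a16. The run of Cyp3a11 was 76% identical to that of Cyp3a44, 60% to that of Cyp3a59 and 58% to that of Cyp3a13. In windows from 250 bases before to 50 after the start, AGGTCA was present in 16.3% of the 32851 promoters and in 19 of 52 P450 windows (36.5%), and AGTTCA in 14% and in 6 of 52 (11.5%). Of genes that rose, the Cyp2a4, Cyp2a5 and Cyp2b9 windows and a window of Cyp2c39 also hold AGGTCA. The match lies after the start in Cyp2a4 and Cyp2a5, and before it in Cyp2b9 and Cyp2c39. The other window of Cyp2c39 and those of Cyp2c38, Cyp2c68, Cyp2d26, Cyp2e1 and Cyp3a13, which also rose, hold none. The near-identical windows of some paralogues (99.2% between Cyp2b9 and Cyp2b13) mean that these counts are not of independent sequences. Here too, sequence beyond the windows was not searched.

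Within the OMT group, replicates 1 and 2 stood apart from replicates 3 to 5 for part of the family. Both lay above the other 3 for 16 of 60 members, where the share over all probe sets was 12.5%. They lay below the other 3 for 10 of 60, near the share of 15.1% over all probe sets, so that count is no result about the family. The 16 included Cyp1a2, Cyp2b10, Cyp2c23, Cyp2c29 (17359287), both Cyp2c55 probe sets, Cyp3a11 and Cyp3a59, all with values nearer to YMT in replicates 1 and 2. Cyp2a5, also among the 16, and Cyp2j6, among the 10, lay further from YMT in replicates 1 and 2 than in replicates 3 to 5. The 16 also included Cyp2c70, at 11.60 and 11.49 in replicates 1 and 2, against 10.67 and 10.47 in replicates 3 and 5. Replicate 4 lay between these pairs, so the split is narrower than they show. The YMT livers were at 11.40, 11.45, 11.98 and 11.34. Without OMT replicates 1 and 2, 9 members were higher and 17 lower. Cyp2d26 and Cyp2e1 then no longer passed, and Cyp2b10, Cyp2c37 (0.38, adjusted p = 0.0414) and Cyp2c70 (-0.83, adjusted p = 0.0318) did. In the genes gained, replicates 1 and 2 had made the difference smaller. Leaving them out therefore widens it, and these passes are no support for a difference.

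**Figure D3:**
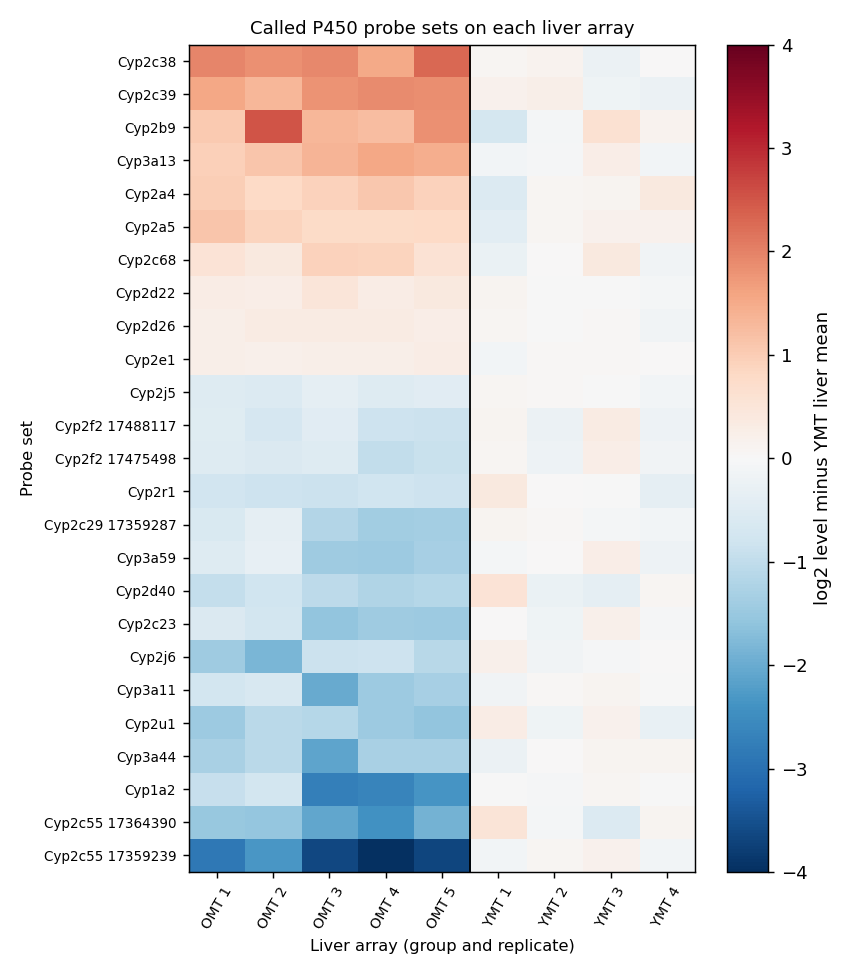
Log2 level minus the YMT liver mean (colour) of the 25 probe sets that passed in liver, on each of the 5 OMT and 4 YMT liver arrays (x axis), ordered from the largest rise to the largest fall. Cyp1a2, Cyp2c55, Cyp3a11 and Cyp3a59 are paler on OMT 1 and OMT 2 than on OMT 3 to 5.

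The transcriptional regulators of these P450s also differed in liver. Of 25 measured, 9 were higher and 2 lower in OMT livers, with a median difference of 0.17, against -0.02 over all probe sets. Over all probe sets 4.89% were higher and 4.28% lower in liver, and these shares apply to each liver list that follows. CAR (Nr1i3) was at 9.92 ± 0.15 in OMT livers and 8.01 ± 0.43 in YMT livers, a rise of 1.92 ± 0.17 (adjusted p = 0.00011). PXR (Nr1i2) was at 8.53 ± 0.18 in OMT livers and 7.87 ± 0.17 in YMT livers (0.67 ± 0.11, adjusted p = 0.00397). Trim24, a co-regulator of sex-biased liver genes, was at 8.54 ± 0.22 in OMT livers and 6.48 ± 0.10 in YMT livers (2.06 ± 0.11, adjusted p = 1e-05). Esr1, the oestrogen receptor alpha, was higher by 1.23 ± 0.13 (adjusted p = 0.00024). Further regulators were chosen after their values were seen. Ahr was higher by 0.59 ± 0.10 (adjusted p = 0.0049) and its partner Arnt by 0.41 ± 0.09 (adjusted p = 0.019), and Bcl6, a repressor of female-biased genes, was lower by 2.39 ± 0.41 (adjusted p = 0.0045).

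Of 5 other genes of the AhR battery, 1 was higher in OMT livers and none lower (median -0.22). This was Nqo1, a quinone reductase also driven by Nrf2, at 7.17 ± 0.36 in OMT livers and 5.96 ± 0.16 in YMT livers (1.21 ± 0.17, adjusted p = 0.0014). Of 10 P450s known as higher in female mouse liver, 4 were higher (Cyp2a4, Cyp2b9, Cyp2c38 and Cyp2c39) and 1 lower (Cyp3a44), with a median of -0.03. Of 2 known as higher in males, Cyp2u1 was lower and Cyp2d9 did not pass. The genes of these sex lists are members already counted above, where 16.7% of the family were higher and 25% lower. Their counts are therefore no separate result.

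In the supply of electrons and haem, on which every P450 depends, 5 of 16 measured genes were higher and 1 lower in OMT livers, with a median of 0.08. The gene that fell was Cyb5r3, the cytochrome b5 reductase, at 10.61 ± 0.13 in OMT livers and 11.51 ± 0.16 in YMT livers (-0.90 ± 0.10, adjusted p = 0.0003). Slc25a38, the mitochondrial glycine carrier of haem synthesis, was higher by 0.68 ± 0.08 (adjusted p = 0.00045), Hmox1, which degrades haem, by 0.97 ± 0.12 (adjusted p = 0.00074) and Cpox, a late enzyme of haem synthesis, by 0.63 ± 0.12 (adjusted p = 0.0089).

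Levels of other gene lists were as follows, where 4.89% of all probe sets were higher and 4.28% lower. In lists this short a count of 1 cannot be told from those shares. Of 16 acute phase genes 6 were higher and none lower in OMT livers (mean level 9.76 to 10.30 in OMT livers and 9.49 to 9.55 in YMT livers). Hepatocyte markers were 12.43 to 12.53 in OMT livers and 12.40 to 12.46 in YMT livers, with 2 of 10 higher. Of 9 pericentral hepatocyte markers, from the zone where Cyp1a2 and Cyp2e1 are known to be made, 3 were lower and none higher (7.78 to 8.04 in OMT livers and 7.96 to 8.09 in YMT livers). Of 7 periportal markers 1 was higher and 1 lower (9.51 to 9.74 and 9.59 to 9.69). Endothelial markers were 6.76 to 7.05 in OMT livers and 7.30 to 7.54 in YMT livers (2 of 6 lower), stellate cell markers 6.06 to 6.19 and 6.30 to 6.57 (2 of 6 lower), and Kupffer cell markers 6.51 to 6.91 and 6.56 to 6.84 (1 of 7 higher and 2 lower). Smooth muscle markers were 4.87 to 5.06 in OMT livers and 5.08 to 5.47 in YMT livers (1 of 5 lower), and enterocyte markers 5.70 to 5.96 and 5.61 to 5.69 (1 of 10 higher). The part of these cell types in the P450 differences was not tested.

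In the small intestine no member passed. None of 60 was higher and none lower in OMT by limma, where 0.319% and 0.957% of all probe sets were. At an unadjusted p under 0.05 there were 11, and the share of all probe sets at that level was not counted. Most of the family was faint there: 40 of the 60 probe sets were dim, among them Cyp1a2 (4.14 to 4.49 in OMT intestines and 4.04 to 4.15 in YMT intestines), Cyp1b1 (3.81 to 4.23 and 3.47 to 4.13) and Cyp2e1 (3.85 to 3.94 and 3.83 to 3.93). Cyp2a5, Cyp2g1, Cyp2r1 and Cyp2t4 were dim as well, and so was 1 of the probe sets of Cyp2f2. All OMT arrays lay above all YMT arrays for 2 members (3.33%, against 2.02% of all probe sets) and below them for 2 (3.33%, against 4.03%). These are Cyp2d22 and the dim Cyp2d40 above, and Cyp2c55 (17359239) and Cyp2s1 below.

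Cyp2d22 had 7.93, 7.78, 8.26, 8.57 and 7.68 in OMT intestines, against 6.56, 7.27, 7.39 and 6.88 in YMT intestines (1.02 ± 0.21, adjusted p = 0.0512). Cyp2s1, an epithelial P450 that can be induced through AhR, had 7.96, 7.93, 8.44, 8.60 and 8.12 in OMT intestines, against 9.36, 8.98, 8.65 and 8.80 in YMT intestines (-0.74 ± 0.18, adjusted p = 0.0758). Cyp2c55 by probe set 17359239 had 8.93, 8.73, 8.93, 6.82 and 8.08 in OMT intestines, against 10.11, 9.91, 9.73 and 9.32 in YMT intestines (-1.47 ± 0.40, adjusted p = 0.106). Each of these separates the groups but misses the threshold. By probe set 17364390, Cyp2c55 had 4.75 to 5.35 in OMT intestines and 4.86 to 5.19 in YMT intestines (-0.05 ± 0.12), so the probe sets disagree in this tissue.

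The known PXR and CAR targets were spread widely among intestines. Cyp3a11 had 7.37, 7.72, 7.90, 7.69 and 7.19 in OMT intestines, against 5.50, 6.70, 7.19 and 6.19 in YMT intestines (1.18 ± 0.29, adjusted p = 0.0874). OMT replicate 5 and YMT replicate 3 share a value, and the other OMT intestines lie above all YMT ones. Cyp2b10 had 10.32, 9.56, 10.05, 9.56 and 7.98 in OMT intestines, against 6.05, 9.49, 10.30 and 8.92 in YMT intestines, ranges that overlap (0.80 ± 0.77, 95% interval -0.90 to 2.51). YMT replicate 1 was lowest for both genes and for Cyp2d22. It also had the lowest enterocyte marker level of all 9 intestines (11.55, against 11.99 to 12.36 in the others) and the highest level of distal intestine markers (11.45, against 10.09 to 11.01). Without it the differences were 0.88 for Cyp3a11 (adjusted p = 0.145), -0.08 for Cyp2b10 (adjusted p = 0.966) and 0.86 for Cyp2d22 (adjusted p = 0.117). It held the lowest value of each of these genes, so leaving it out must lower the differences. Nothing follows from that change, and the part of its marker levels was not tested.

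Cyp1a1, the AhR target that responds most readily to dietary and bacterial indoles in the gut, had 5.79, 5.81, 6.12, 4.80 and 4.73 in OMT intestines, against 5.56, 5.64, 5.49 and 4.96 in YMT intestines. These ranges overlap, with OMT replicates 4 and 5 lowest (0.04 ± 0.29, 95% interval -0.61 to 0.69). In Cyp2j9 the OMT intestines had 5.30, 5.31, 5.03, 5.35 and 4.79, against 4.66, 4.43, 4.97 and 4.77 in YMT intestines (0.45 ± 0.14, adjusted p = 0.157). Cyp2u1 had 8.18, 8.11, 7.89, 7.79 and 7.92 in OMT intestines, against 8.66, 8.59, 8.22 and 8.18 in YMT intestines (-0.43 ± 0.13, adjusted p = 0.125), with contact only at 8.18. Cyp2w1, known from fetal gut, was 4.70 to 5.12 in OMT intestines and 5.07 to 5.56 in YMT intestines (-0.29 ± 0.13, adjusted p = 0.289). Cyp2r1 was 3.37 to 4.08 and 3.98 to 4.53 (-0.65 ± 0.16, adjusted p = 0.0821). Cyp2f2 by probe set 17488117 (0.14 ± 0.12), Cyp2a22 (0.19 ± 0.13), Cyp2c23 (-0.01 ± 0.09), Cyp2j11 (0.05 ± 0.07), Cyp2c65 (0.25 ± 0.24), Cyp2c68 (-0.27 ± 0.18), Cyp2d26 (0.45 ± 0.21), Cyp2j6 (0.72 ± 0.26), Cyp3a13 (0.31 ± 0.21) and Cyp3a25 (-0.79 ± 0.37) did not pass either.

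**Figure D4:**
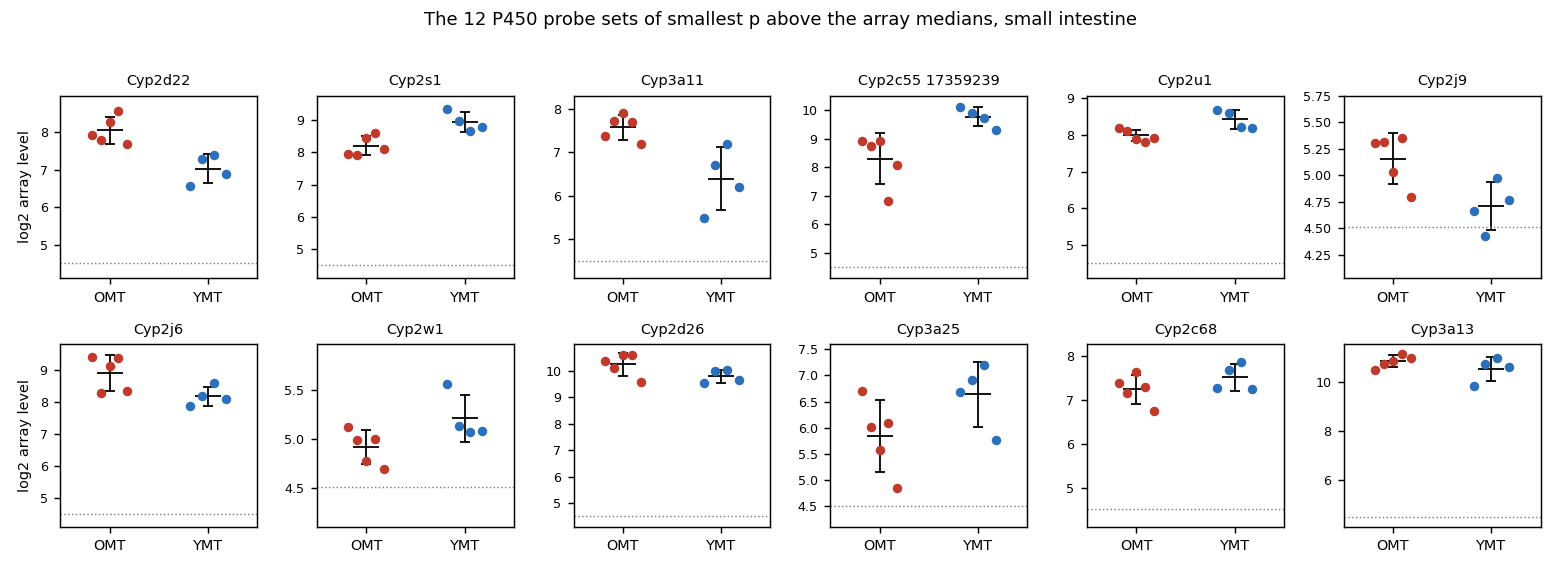
Log2 level (y axis) on each OMT (red, n = 5) and YMT (blue, n = 4) intestine array of the 12 probe sets of smallest unadjusted p among the 20 that are not dim, with mean and SD bars and the highest array median, 4.51, as a dotted line. Cyp2d22, Cyp2s1 and Cyp2c55 (17359239) separate the groups, and none of the 12 passed the adjusted threshold.

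Among the regulators in the intestine, 1 of 25 was higher and 1 lower, where 0.319% and 0.957% of all probe sets were. Here and in the lists below, 1 gene called is no result about its list. Tiparp, an AhR target and repressor, was at 7.34 ± 0.20 in OMT intestines and 6.68 ± 0.14 in YMT intestines (0.66 ± 0.11, adjusted p = 0.023). Nr1h4, the bile acid receptor FXR, was at 7.70 ± 0.18 in OMT intestines and 8.62 ± 0.43 in YMT intestines (-0.92 ± 0.18, adjusted p = 0.042). Nr1i3 (0.79 ± 0.32), Nr1i2 (-0.07 ± 0.09) and Ahr (-0.06 ± 0.22) did not pass, nor did any of 16 genes of electron and haem supply. Tiparp was the 1 gene higher among the 5 of the AhR battery. Goblet cell markers were 11.21 to 11.68 in OMT intestines and 11.76 to 11.96 in YMT intestines (1 of 6 lower), and T and NK cell markers at most 7.71 and at least 7.74 (1 of 6 lower). Proximal intestine markers were 5.80 to 6.10 and 5.63 to 6.19 (1 of 7 lower) and distal ones 10.09 to 10.96 and 10.53 to 11.45 (none of 5). Their part in the P450 values was not tested.

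The tissues differed in how the family stood between OMT and YMT. Tested on all 18 arrays, the liver difference was unequal to the intestine difference for 20 of 60 members (33.3%, against 5.57% of all probe sets), being higher in liver for 8 (3.41% of all) and lower for 12 (2.15%). For Cyp3a11 the differences ran in opposite directions, -1.23 in liver and 1.18 in intestine, a gap of -2.41 ± 0.40 (adjusted p = 0.00119). Cyp2j6 stood at -1.21 in liver and 0.72 in intestine (-1.92 ± 0.34, adjusted p = 0.00192), and Cyp2d40 at -1.03 and 0.41 (-1.44 ± 0.20, adjusted p = 0.000226). In these 3 genes only the liver difference passed on its own, and Cyp2d40 was dim in intestine, where its value has little meaning as a level. Cyp2u1 stood at -1.34 in liver and -0.43 in intestine, where it did not pass, and the gap was -0.90 ± 0.20 (adjusted p = 0.0117). Cyp2s1 was the 1 member of the 20 that had not passed in liver, with -0.03 in liver and -0.74 in intestine (0.71 ± 0.20, adjusted p = 0.0412). For Cyp2b10 the differences were -1.35 and 0.80, but the gap of -2.15 ± 0.95 did not pass (adjusted p = 0.205). Like Cyp2d40, many others of the 20 are dim in intestine, where a difference could hardly be seen.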

How the data were processed

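RNA of 18 tissue samples was measured on Affymetrix whole-transcript arrays from 250 ng of total RNA, per the labels' protocols. The deposited values are log2 levels. The authors ran Affymetrix Expression Console with RMA, as the submitters' processing notes list, with no version given in the sources used here. This method corrects background, equalises array distributions and summarises probes, and it narrows differences of faint probe sets. The log base was taken as 2 from the values, and whether the tissues were normalized together is not stated. No batch or scan information was used here, so a batch cannot be told apart from the groups.

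No arrays held identical values. Groups came from the titles, which call the samples biological replicates. All 23521 probe sets with 1 symbol entered limma 3.58.1 (R 4.3.3; lmFit and eBayes, two-sided, Benjamini-Hochberg) without a level filter, per tissue, and on all 18 arrays for the difference between tissues. The steps were tested on simulated data. The number of arrays limits the precision. Gene names were checked in RefSeq, which held all 57 genes, and promoters were aligned with biopython 1.88.

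The members and lists were chosen with earlier results of these data known. Values on every array are given for up to 6 largest rises and falls among calls, for Cyp1a1, Cyp1a2, Cyp1b1, Cyp2b10, Cyp2e1 and Cyp3a11, and for the member of smallest p of each other subfamily; from the lists, up to 4 genes of smallest p past the threshold. Alternatives covered filters, variance moderation, array weights, scaling, probe set summaries, the replicate number as a block, arrays left out and a threshold of 0.10.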

Additional observations from a re-analysis of the deposited data

Results flagged for a closer look

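In 20 members the OMT minus YMT difference was unequal in the tissues, by a limma test of the difference itself. As liver minus intestine on the log2 scale, it was above 0 for Cyp2c39 (1.69), Cyp2c38 (1.68), Cyp2b9 (1.61), Cyp2a5 (1.06), Cyp3a13 (0.98), Cyp2c68 (0.93), Cyp2a4 (0.86) and Cyp2s1 (0.71). It was below 0 for Cyp3a11 (-2.41), Cyp1a2 (-2.01), Cyp2j6 (-1.92), Cyp2c55 (-1.84 by probe set 17364390 and -1.83 by 17359239), Cyp3a44 (-1.45), Cyp2d40 (-1.44), Cyp2c23 (-1.14), Cyp2f2 (-0.93 by probe set 17475498 and -0.80 by 17488117), Cyp2u1 (-0.90) and Cyp2j5 (-0.71). Adjusted p-values ran up to 0.0452. Cyp1a2, Cyp2a4, Cyp2a5, Cyp2b9, Cyp2c38, Cyp2c39, Cyp2d40, Cyp2j5, Cyp3a44 and Cyp2f2 by probe set 17475498 were dim in intestine. For these, a difference in intestine could hardly be seen.

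In 6 of 88 groups of arrays tested, 1 array lay far from the rest of its group. Chance alone gives about 1 in 20 such groups. Cyp2a5 was 5.02 in YMT liver replicate 1, against 5.54 to 5.64 in the other YMT livers, and Cyp3a44 was 3.56 in OMT liver replicate 3, against 4.36 to 4.60. Cyp1a1 was 3.99 in OMT liver replicate 4, against 4.31 to 4.42, and Cyp1a2 was 11.68 in YMT liver replicate 3, against 11.56 to 11.58. In intestine, Cyp1a2 was 4.49 in OMT replicate 1, against 4.14 to 4.17, and Cyp2w1 was 5.56 in YMT replicate 1, against 5.07 to 5.13. Cyp1a2 in intestine and Cyp1a1 and Cyp3a44 in OMT livers lie near the array medians.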

How the results depend on the processing

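In liver, the counts of 10 higher and 15 lower members stayed within 1.5 times of these values in every alternative run, and all 25 called probe sets kept their direction wherever they were tested. Leaving out 1 array in turn gave 7 to 9 higher and 14 to 16 lower, with Cyp2e1, Cyp3a59, Cyp2c68 and Cyp2d26 as the calls lost. The dim Cyp2c65 was gained with quantile normalization, centring on array medians, 1 probe set per gene, or YMT replicate 2 left out. Cyp2b10 was gained with OMT replicate 2 left out, and Cyp2b10 and Cyp2c37 with a filter at the 75th percentile. In intestine, where no member passed, alternatives gave 1 higher and 1 lower with a filter at the array median, 2 and 2 with one at the 75th percentile, 2 and 3 with all 18 arrays in 1 fit, and 3 and 2 at a threshold of 0.10. Higher members numbered 1 with trended and robust variances, quantile normalization, 1 probe set per gene or the mean over its probe sets, and 2 with array weights; leaving out 1 array gave 0 to 1 higher and 0 lower. The members gained at 0.05 were Cyp2d22, Cyp2s1, Cyp2c55, Cyp3a11, Cyp2r1 and Cyp2d40. Fewer probe sets are tested under a filter, but Cyp2d22 was also gained without one, and the cause of these gains was not tested. The tissue comparison gave 16 to 20 members on leaving out 1 array and 19 to 21 otherwise. Scaling moved the median of all probe sets by less than 0.1.

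Samples of the same number deviated together little between OMT and YMT (correlations -0.14 to 0.08 in liver and -0.06 to 0.22 in intestine). Only replicate 1 in liver and replicate 4 in intestine matched their own number best. So few pairs cannot exclude that the numbers pair samples. With the replicate number as a block, 7 members were higher and 12 lower in liver, where Cyp1a2, Cyp3a11, Cyp3a59, Cyp2d22, Cyp2d26 and Cyp2e1 no longer passed, and 1 was higher in intestine (Cyp3a11); OMT replicate 5 then drops out of the fit. Treating same-numbered liver and intestine arrays as 1 recipient (random block) the tissue comparison gave 20. Faint signals limit what the intestine can show.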
